A study of Rattus norvegicus with 2 samples.

Results

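The macrophage and leukocyte markers C1qa, C1qb, C1qc, Cd68, Ptprc, Csf1r, Lyz2, Aif1, Cd163 and Cd14 were examined in the left adrenal medulla of adult male Sprague-Dawley rats. All probe sets annotated to exactly 1 of these genes were taken, which gave 12 of the 31042 probe sets of the array and 10 of its 14217 genes. Of the 10 genes, 8 were read by 1 probe set and 2, Ptprc and Aif1, by 2. The genes were selected on their differences between these same 2 arrays, which do not all go one way, so their values are given as a description.
The 2RH30 rats had received human insulin at 2 IU/kg intraperitoneally 2 times per day for 3 days to produce recurrent hypoglycemia (RH), and saline was given to the 2RS30 rats on the same schedule. According to the methods only the morning injection was given on the last of these days. All animals of both groups carried vascular catheters, were fasted overnight and underwent a hyperinsulinemic-hypoglycemic clamp on day 4. They were killed 30 min after target glucose was reached, so that both groups were hypoglycemic at sampling and differed in their antecedent history. RNA from 6 rats was pooled for each of the 2 arrays. With 1 array per group the spread between animals is unknown, no difference has a replicate check, and no p-value is given. In pooled bulk RNA, more cells of a type and more RNA per cell cannot be told apart.

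Resident macrophages of the adrenal gland lie along its sinusoids and among its endocrine cells. C1q, which they secrete, is built from A, B and C chains and starts the classical complement pathway by binding antibody or cell debris. The other markers cover different sides of the same cells. CD45, encoded by Ptprc, is a phosphatase on all white blood cells, Csf1r is the receptor that macrophages need for survival, and Cd68 is a glycoprotein of their lysosomes. Lyz2 encodes lysozyme, Aif1 encodes the calcium-binding protein IBA1, Cd163 takes up haemoglobin bound to haptoglobin, and Cd14 hands bacterial lipopolysaccharide to a toll-like receptor.
C1qb, C1qc and C1qa follow each other on rat chromosome 5 with no other annotated gene between them. Of the 10 genes, 8 had a promoter sequence in RefSeq (GRCr8), and the 250 bases before the start are shown for a pair of C1q genes with higher values in 2RH30 and for both genes with lower ones, so that the pairs can be compared. Capitals mark GAGGAA, a core sequence of sites for the macrophage factor PU.1, on either strand (TTCCTC on the other). No overlap with another motif was examined.
C1qa, chr5:154419934-154420183, minus strand: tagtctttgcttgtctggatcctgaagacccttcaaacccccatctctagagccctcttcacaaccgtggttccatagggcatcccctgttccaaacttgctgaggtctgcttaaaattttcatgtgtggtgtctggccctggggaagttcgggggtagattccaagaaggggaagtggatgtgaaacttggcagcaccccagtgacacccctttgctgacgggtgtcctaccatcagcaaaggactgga
C1qb, chr5:154407828-154408077, minus strand: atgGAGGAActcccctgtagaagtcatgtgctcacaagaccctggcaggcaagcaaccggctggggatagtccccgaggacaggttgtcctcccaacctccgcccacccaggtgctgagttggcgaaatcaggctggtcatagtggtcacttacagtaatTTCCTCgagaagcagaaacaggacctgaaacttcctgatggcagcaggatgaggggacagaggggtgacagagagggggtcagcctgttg
Csf1r, chr18:56834129-56834378, plus strand: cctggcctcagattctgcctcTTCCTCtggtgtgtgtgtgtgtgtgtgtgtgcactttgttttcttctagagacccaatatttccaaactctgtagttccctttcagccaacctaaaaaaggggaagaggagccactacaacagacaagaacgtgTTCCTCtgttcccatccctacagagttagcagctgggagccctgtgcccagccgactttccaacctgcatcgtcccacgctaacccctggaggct
Ptprc, chr13:52259747-52259996, minus strand: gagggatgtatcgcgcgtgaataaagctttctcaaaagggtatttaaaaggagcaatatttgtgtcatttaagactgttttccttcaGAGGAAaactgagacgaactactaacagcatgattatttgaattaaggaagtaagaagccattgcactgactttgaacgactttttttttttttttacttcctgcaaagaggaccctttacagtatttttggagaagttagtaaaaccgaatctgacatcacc
The motif occurred 0 times in the C1qa window, 2 times in C1qb, 2 times in Csf1r and 1 time in Ptprc. The windows of Cd68 and Lyz2 held it 1 time each, that of Cd14 2 times and that of Cd163 0 times. It was thus present in 6 of 8 windows, and in 23.3% of all 33469 windows of this length. Genes with higher and with lower values in 2RH30 both had windows that held it. A match is a description of the letters and not of binding.

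The tissue label was checked against markers of chromaffin cells, of which 0 of 10 measured genes were dim, that is below the median of all probe sets on both arrays. Of 8 measured steroidogenic genes of the adrenal cortex, 0 were dim as well. Median levels were 9.11 in 2RH30 and 8.38 in 2RS30 for chromaffin markers, and 11.5 and 10.9 for cortical markers. Transcripts of the cortex were thus read in the dissected tissue, and the zone that the macrophage values come from was not tested. Median differences were 0.47 for chromaffin and 0.61 for cortical markers on the log2 scale (level-adjusted 0.04 and 0.04). All differences are given as 2RH30 minus 2RS30 on the log2 scale, on which 1 is 2-fold. The median difference of probe sets went with their level, reaching -0.49 toward the dim end of 20 level bins and 0.49 in the brightest. Most differences are therefore also given after a lowess curve on level was subtracted (level-adjusted). Other probe sets of a related gene, and a few genes, are mostly given as deposited only. The controls BioB, BioC, BioDn and CreX are added to the hybridization mix. Their mean differences were -3.25, -2.63, -1.74 and -0.51, over 6, 4, 2 and 2 probe sets. Values were spread with an SD of 1.57 in 2RH30 and 1.28 in 2RS30. The 3′ minus 5′ value of the actin, GAPDH and hexokinase controls, a sign of RNA integrity, had differences of -0.07, 0.30 and -0.21. In 2RS30, 7 values were each shared exactly by 100 or more probe sets, 2120 probe sets in all or 6.83% of the array, while no value of 2RH30 was shared by more than 25. None of the 12 member probe sets lay on such a value, and no member value occurred more than 2 times on its array. Of the related and cell type genes given with their values below, Ccr2, Mpeg1, Csk and Cd3g had 2RS30 values that 330, 468, 464 and 316 probe sets share. The part of these technical measures in the results below was not tested.

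As deposited, 5 of the 12 probe sets had values 2-fold or more higher in 2RH30 (C1qa, Cd68, C1qb, C1qc and Cd14), against 10.4% of all probe sets. A further 2 probe sets were 2-fold or more lower (one each of Ptprc and Aif1), against 12.1% of all. Level-adjusted, 5 were higher (background 8.99%) and 1 was lower (background 10.2%). The 5 were then C1qa, Cd68, Cd163, C1qc and C1qb, since Cd14 dropped below 2-fold and Cd163 passed it. Because these genes were picked with the same values in view, nothing is read from the counts. Over the 10 genes, each read from its brightest probe set by mean level, the median difference was 0.998 (level-adjusted 0.90), and over all genes it was 0.11 (level-adjusted 0.02).

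**Figure D1:**
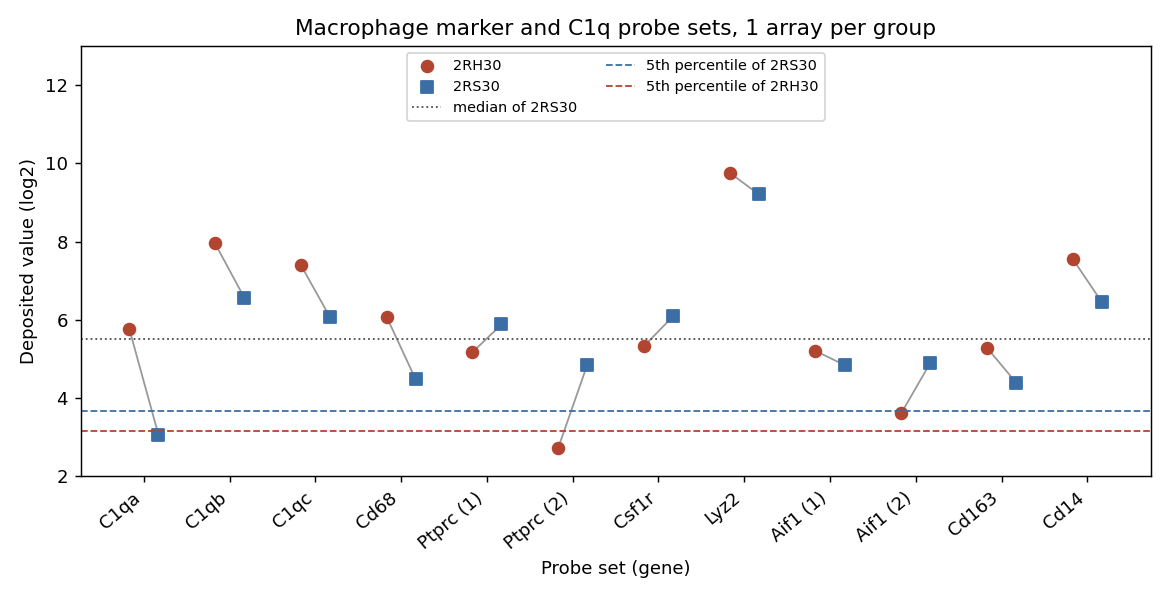
Deposited log2 value (vertical axis) of each of the 12 probe sets (horizontal axis) in 2RH30 (circles) and 2RS30 (squares), 1 array each, joined by a line. The number in brackets is the probe set of a gene with several, brighter first; the dotted line is the median of 2RS30, and dashed lines are the 5th percentiles of each array. The C1q chains, Cd68 and Cd14 lie higher in 2RH30, Csf1r and both Ptprc probe sets lie lower, and the Aif1 probe sets go opposite ways.

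All 3 chains of C1q had higher values in 2RH30. C1qb, the B chain, read 7.95 in 2RH30 and 6.57 in 2RS30, a difference of 1.38 (level-adjusted 1.03). C1qc, the C chain, read 7.40 in 2RH30 and 6.07 in 2RS30, a difference of 1.33 (level-adjusted 1.06). These 2 chains thus differed by nearly the same amount, 2.61-fold and 2.52-fold as deposited, from probe sets that were bright on both arrays. In their level bins 15.3% and 15.2% of probe sets were higher by at least 2-fold, and the bin medians were 0.39 and 0.28. C1qa, the A chain, read 5.77 in 2RH30 and 3.06 in 2RS30, a difference of 2.71 (level-adjusted 3.04). Its value in 2RS30 lay at percentile 0.625 of that array, below the 5th percentile of 3.67, so the size of the difference rests on a signal near the bottom of the scale. In its level bin 4.83% of probe sets were higher by at least 2-fold.
A yardstick for a single gene was taken from genes with several probe sets that were not dim. Within such genes the difference varied with an SD of 0.86 where the mean level was 5 to 7 (1977 genes) and of 0.63 above 7 (550 genes). Below 5 it was 1.55, from only 12 genes. A probe set with a mean level below 5 escapes being dim only if its arrays differ widely. The SD below 5 is therefore set largely by this filter. It is not used as a yardstick for C1qa or Cd163, except in a count of alternative values given near the end. The SD between probe sets knows nothing of animals or pools, and a value beyond it is not thereby shown to differ. C1qb and C1qc exceeded the SD at their levels as deposited and level-adjusted.

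Cd68, the lysosomal marker, read 6.08 in 2RH30 and 4.47 in 2RS30, a difference of 1.60 (level-adjusted 1.61), or 3.04-fold. Its value lay at percentile 64.0 of the array in 2RH30, above the median, and at percentile 20.9 in 2RS30, below it. Its level bin had a median of -0.02, so that the adjustment hardly moved it, and 11.1% of that bin was 2-fold or more higher. Cd14, the lipopolysaccharide co-receptor, read 7.55 in 2RH30 and 6.45 in 2RS30, a difference of 1.10 (level-adjusted 0.78). Cd68 lay beyond the yardstick SD in both forms, and so did Cd14, whose mean level of 7.003 is just above 7. Against the SD of 0.86 for levels of 5 to 7, the level-adjusted difference of Cd14 would not exceed it.
Cd163, the haemoglobin scavenger receptor, read 5.29 in 2RH30 and 4.39 in 2RS30, a difference of 0.89 (level-adjusted 1.07). Its probe set was dim and its mean level was below 5, so there is no usable SD between probe sets for it. Lyz2, lysozyme, was among the brightest probe sets of both arrays, at percentile 98.9 in 2RH30 and 98.8 in 2RS30. It read 9.76 in 2RH30 and 9.21 in 2RS30, a difference of 0.55 that was 0.03 level-adjusted, and the median of its bin was 0.49. The rat genome holds a further lysozyme gene, Lyc2, on the same chromosome, and the files do not say whether the probe set can tell their transcripts apart.

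Csf1r and Ptprc went the other way. Csf1r, the receptor for CSF1 and IL-34, read 5.32 in 2RH30 and 6.09 in 2RS30, a difference of -0.77 (level-adjusted -0.89). Ptprc, which encodes CD45, read 5.17 in 2RH30 and 5.88 in 2RS30 in its brighter probe set, a difference of -0.71 (level-adjusted -0.79). Its other probe set read 2.72 in 2RH30 and 4.85 in 2RS30, a difference of -2.13 (level-adjusted -1.68). Both Ptprc probe sets therefore had lower values in 2RH30, although the second was dim and its 2RH30 value lay at percentile 0.863 of that array. In its level bin 26.9% of probe sets were 2-fold or more lower. Csf1r exceeded the SD between probe sets level-adjusted but not as deposited, and the brighter Ptprc probe set in neither form.
Aif1, which encodes IBA1, was split between its probe sets, both dim. The brighter read 5.20 in 2RH30 and 4.84 in 2RS30, a difference of 0.36 (level-adjusted 0.46). The other, whose probes can match several transcripts, read 3.61 in 2RH30 and 4.90 in 2RS30, a difference of -1.29 (level-adjusted -0.91). No direction can be given for Aif1. Such splits were common, as 51.3% of 4525 genes with several probe sets had differences of both signs.

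**Figure D2:**
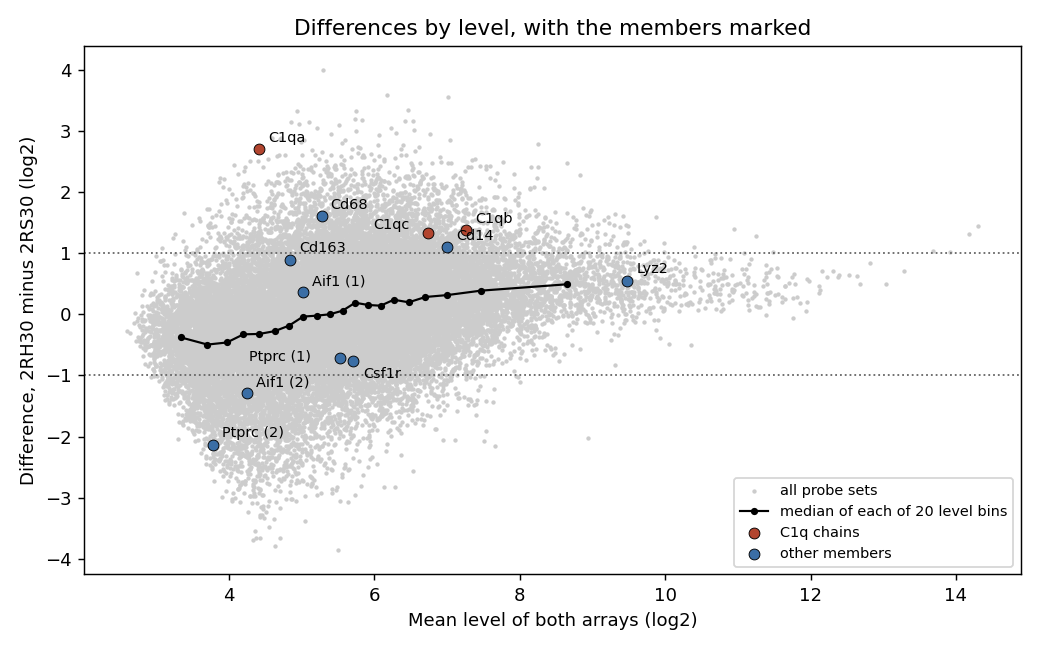
Difference of 2RH30 minus 2RS30 (vertical axis, log2) by mean level over both arrays (horizontal axis, log2) for all 31042 probe sets (grey), the C1q chains (red) and the other members (blue), and the bin medians over 20 bins of level (black). Dotted lines mark 2-fold. C1qa at 2.71 lies at the upper edge of its level, C1qb and C1qc lie above 1, and Csf1r and Ptprc lie below the bin medians.

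Ordered by difference, the genes ran from C1qa through Cd68, C1qb, C1qc, Cd14, Cd163, Lyz2 and Aif1 to Ptprc and Csf1r. Of the 9 steps between neighbours in this order, those next to C1qa (1.10 to Cd68) and Cd163 have no usable SD. A step joins 2 values that each vary, so passing the SD of 1 value does not set 2 genes apart. Among the other steps, only that of 1.07 between Aif1 and Ptprc was larger than the SD between probe sets of both genes. That step rests on the brighter, dim probe set of Aif1, and Aif1 was at -0.47 as the mean over its probe sets and at -1.29 in the other one, values that lie nearer to the -0.71 of Ptprc or below it. Cd68, C1qb, C1qc and Cd14 lay within 0.50 of each other and cannot be ordered. A constant shift between the arrays cancels when genes are set against each other. C1qb minus Csf1r was 2.15 (level-adjusted 1.92), C1qc minus Csf1r 2.10 (level-adjusted 1.95) and Cd68 minus Csf1r 2.37 (level-adjusted 2.50). Against the brighter Ptprc probe set the same 3 genes were at 2.10, 2.04 and 2.32 (level-adjusted 1.81, 1.84 and 2.40). Lyz2 minus Csf1r was smaller, at 1.32 (level-adjusted 0.92), and Lyz2 minus Ptprc was 1.26 (level-adjusted 0.81). The genes were chosen with these values known, so the direction of these gaps is a description only.

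**Figure D3:**
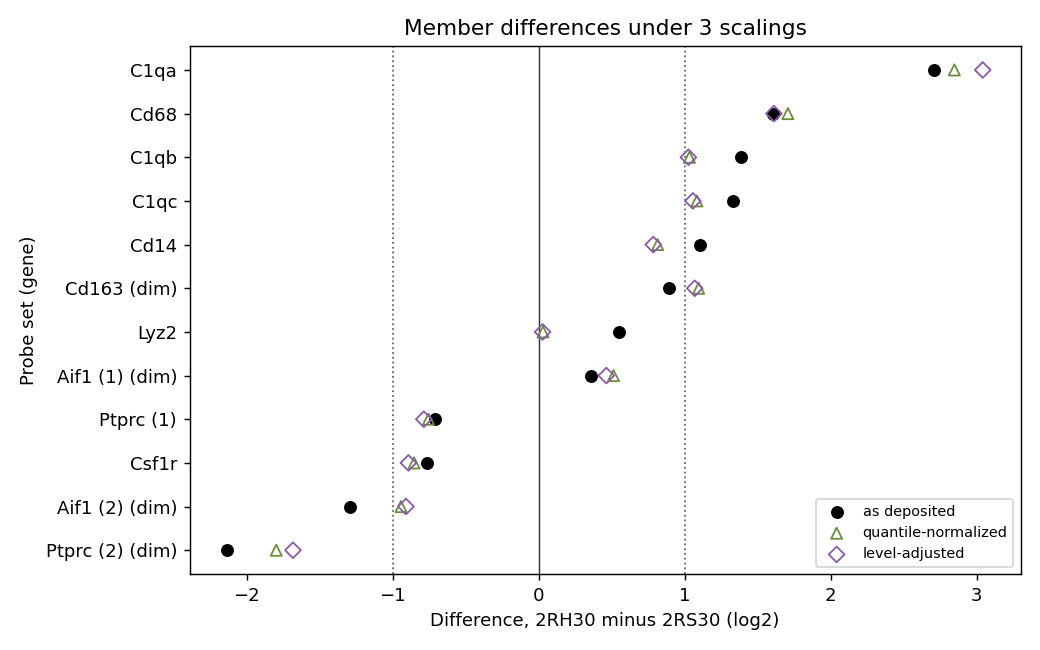
Difference of 2RH30 minus 2RS30 (log2, horizontal axis) of each member probe set (vertical axis), as deposited (filled circles), quantile-normalized (triangles) and level-adjusted (diamonds). Dotted lines mark 2-fold. Every probe set keeps its sign under the 3 scalings, and Lyz2 moves to 0.03.

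Related genes were described from lists written with earlier results of these data known, with the share of all genes that were 2-fold or more higher, 11.5%, or lower, 9.62%, as background. Of 15 measured complement components other than C1q, 2 were 2-fold or more higher in 2RH30 and 0 were lower, and their median was -0.12 (level-adjusted -0.10). The higher genes were Masp1, a protease of the lectin pathway, at 1.19 (level-adjusted 1.01), and C9, part of the membrane attack complex, at 1.05 (level-adjusted 1.15). The other Masp1 probe sets differed by 0.56 and -0.86. Mbl2, a lectin that starts the same pathway, and Cfp, which stabilizes the alternative pathway convertase, were lowest of the genes that were not dim at -0.80 and -0.57 (level-adjusted -0.75 and -0.81), with 0.27 and -1.01 in their other probe sets. C1r and C1s encode the proteases that C1q carries and were picked out after their values were seen. C1r read 8.49 in 2RH30 and 8.10 in 2RS30, a difference of 0.40 (level-adjusted -0.08). The dim C1s read 5.33 in 2RH30 and 5.003 in 2RS30, a difference of 0.33 (level-adjusted 0.37). Neither protease differed by as much as any C1q chain.
Of 17 complement regulators and receptors 0 were higher and 2 were lower, by at least 2-fold, with a median of -0.05 (level-adjusted -0.05). Itgam, a chain of complement receptor 3, read 4.64 in 2RH30 and 5.75 in 2RS30 and was at -1.11 (level-adjusted -1.07). Cd55, which blocks the convertases, was at -0.68 (level-adjusted -0.84). Cr1l, a regulator of the convertases, and Lrp1, a receptor on phagocytes, were highest of those not dim at 0.76 and 0.62 (level-adjusted 0.50 and 0.30), with -0.67 and 0.40 in their other probe sets.

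Genes around the CSF1 receptor had a median of -0.26 (level-adjusted -0.41) over 14 measured, with 0 higher and 0 lower by at least 2-fold. Csf1, the main ligand, read 6.64 in 2RH30 and 7.55 in 2RS30 in its brightest probe set, a difference of -0.91 (level-adjusted -1.25), while its other 3 probe sets differed by -0.76, 0.96 and -0.24. Csf2, a growth factor for granulocytes and macrophages, was at -0.72 (level-adjusted -0.97) with 0.44 in its other probe set. Maf, a macrophage transcription factor, and Syk, a kinase of phagocyte receptors, were highest at 0.50 and 0.38 (level-adjusted 0.09 and 0.25).
Of 31 other macrophage markers, 1 was higher and 2 were lower, by at least 2-fold, with a median of 0.06 (level-adjusted 0.15). After the level adjustment 1272 of all 14217 genes passed 2-fold upward and 1324 downward. Among the 31 markers 0 then passed it upward and 4 downward. These were Ccr2, Adgre1, Cybb, a subunit of the phagocyte oxidase, at -1.10 (-0.78 as deposited), and Lgals3, a galectin, at -1.08 (-0.79 as deposited). The other Cybb probe set, which was dim, was at -0.08 level-adjusted (-0.52 as deposited). Mrc1, the mannose receptor, read 6.05 in 2RH30 and 5.04 in 2RS30, a difference of 1.001 (level-adjusted 0.92). Mpeg1, a pore-forming protein of phagocytes, was at 0.84 (with a shared 2RS30 value) and at 0.69 in its other probe set. Ccr2, the receptor that brings monocytes into tissue, read 4.73 in 2RH30 and 6.09 in 2RS30, a difference of -1.35 (level-adjusted -1.39) that rests on a shared 2RS30 value, and its ligand Ccl2 was at -0.89 (level-adjusted -0.86). The other lower gene, the dim Adgre1, an adhesion receptor that marks rodent macrophages, was at -1.39 (level-adjusted -1.06). Adgre1, Cybb and Lgals3 were named after their values were seen. The median over all genes was 0.11 (level-adjusted 0.02).

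Lysosomal genes of phagocytes, which share the compartment of Cd68, had a median of 0.45 (level-adjusted 0.10) over 14 measured, with 3 higher and 1 lower by at least 2-fold. Lipa, the acid lipase, read 6.41 in 2RH30 and 5.03 in 2RS30, a difference of 1.38 (level-adjusted 1.25). Npc2, which carries cholesterol out of lysosomes, read 6.37 in 2RH30 and 5.06 in 2RS30, a difference of 1.31 (level-adjusted 1.19). Ctsd, cathepsin D, and Psap, prosaposin, were lowest of the genes that were not dim at -0.20 and -0.07 (level-adjusted -0.62 and -0.38). These genes are also used by cells other than macrophages.
The partners of Cd14 went both ways. Of 11 measured, 2 were higher and 3 lower by at least 2-fold, with a median of -0.44 (level-adjusted -0.03), and 7 were dim. Tlr4, the receptor that Cd14 serves, read 3.66 in 2RH30 and 5.53 in 2RS30, a difference of -1.87 (level-adjusted -1.60). In its level bin 20.7% of probe sets were 2-fold or more lower. Lbp, which delivers lipopolysaccharide to Cd14, was at -1.23 (level-adjusted -1.21). Traf6 and Irak1, which relay the signal, were at 1.90 and 1.10 (level-adjusted 1.69 and 0.88). The other Traf6 probe sets, however, differed by -0.40, -0.30 and 0.49. Tlr4 and Lbp were above the median of all probe sets in 2RS30 only, and Traf6 in 2RH30 only. Each thus escapes being dim through the array where it is higher.

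Of 8 measured genes for handling of haemoglobin and iron, which act with Cd163, 2 were higher and 0 were lower, by at least 2-fold, with a median of 0.02 (level-adjusted -0.33). Slc40a1, the iron exporter ferroportin, was at 1.28 (level-adjusted 1.05), though its other probe sets were at 0.03 and -1.20. Blvrb, a biliverdin reductase, was at 1.05 (level-adjusted 0.84). Hp, haptoglobin, read 6.50 in 2RH30 and 7.25 in 2RS30, a difference of -0.75 (level-adjusted -1.05), and Tfrc, the transferrin receptor, was at -0.91 (level-adjusted -0.84) with 0.87 in its other probe set.
Of 11 genes around CD45, most of them kinases and phosphatases, 1 was higher and 0 were lower, by at least 2-fold, with a median of 0.29 (level-adjusted 0.26). Csk, which counters CD45 on Src kinases, read 6.74 in 2RH30 and 4.92 in 2RS30, a difference of 1.82 (level-adjusted 1.67) that likewise rests on a shared 2RS30 value. Fyn was at 0.97 and 2.54 in its 2 probe sets. Lck, the T cell kinase that CD45 activates, was at -0.81 (level-adjusted -1.05) and Lyn at -0.45 (level-adjusted -0.87) with 0.99 in its other probe set.
Of 8 genes for MHC class II, which macrophages and dendritic cells use to present antigen, 2 were higher and 1 was lower, by at least 2-fold, with a median of 0.32 (level-adjusted 0.13). RT1-Db1, a beta chain, was at 2.18 (level-adjusted 2.12) but at -0.95 in its other probe set, and RT1-DMb, which helps load peptides, was at 1.10 (level-adjusted 1.06). Ciita, the activator of these genes, was at -1.17 (level-adjusted -1.48) and RT1-DMa at -0.45 (level-adjusted -0.62).

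**Figure D4:**
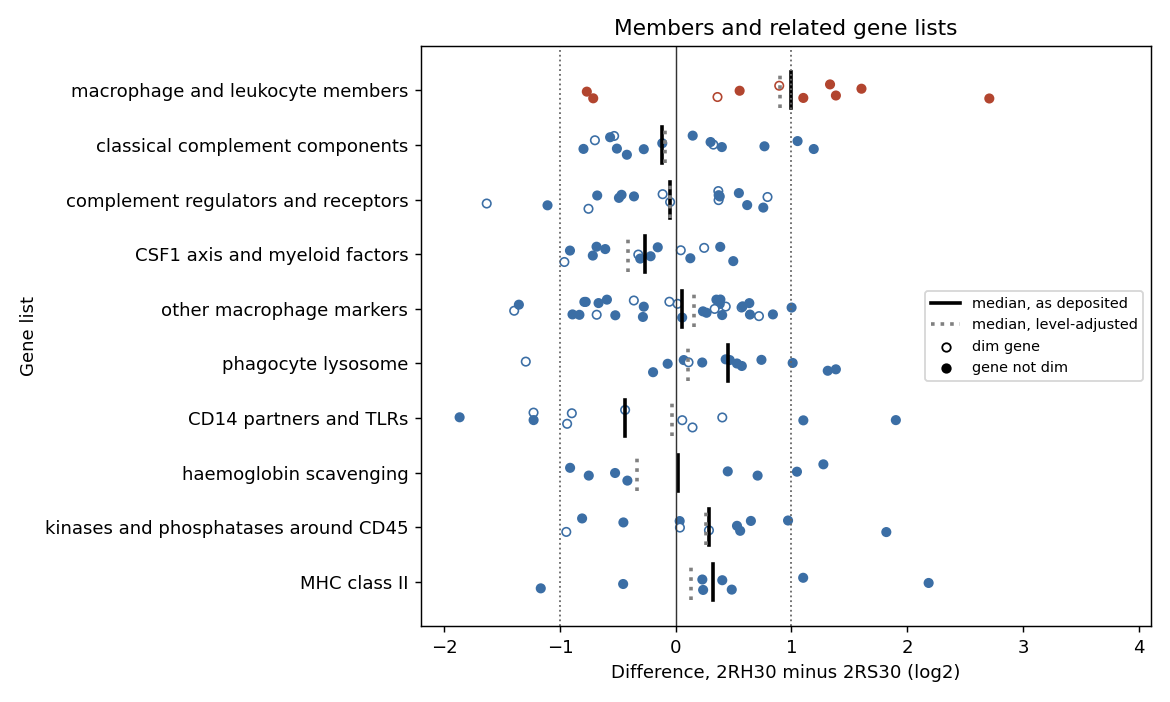
Difference of 2RH30 minus 2RS30 (log2, horizontal axis) of each measured gene (points, open where dim) in the 10 members and 9 related gene lists (vertical axis), with the median as deposited (black line) and level-adjusted (grey dotted line). Thin dotted lines mark 2-fold. The members have a median of 0.998, and the medians of the related lists lie between -0.44 and 0.45.

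Ptprc is carried by all white blood cells, so markers of other leukocytes are given beside it. Of 13 T and NK cell markers 0 were higher and 4 were lower, by at least 2-fold, with a median of -0.81 (level-adjusted -0.65), and 6 of them were dim. Their median level was 4.61 in 2RH30 and 5.44 in 2RS30. Level-adjusted, 1 marker was higher by at least 2-fold and 4 were lower, against 1272 and 1324 of all 14217 genes. The chains of the T cell receptor complex, which define T cells, are named here after their values were seen. Cd3d read 4.79 in 2RH30 and 5.82 in 2RS30, a difference of -1.04 (level-adjusted -1.04). The dim Cd3e read 4.21 on both arrays (level-adjusted difference 0.40), but its other probe set differed by -1.07 (level-adjusted -0.64). The dim Cd3g was at -0.83 (level-adjusted -0.38) with a shared 2RS30 value. Cd247 was at -1.22 (level-adjusted -1.45) with 0.63 (level-adjusted 0.52) in its other probe set. Besides Cd3e, the markers above 0 were Cd2, the dim Prf1 and the dim Cd8b, also named after their values were seen. They were at 0.86, 0.80 and 0.11 (level-adjusted 0.71, 1.22 and 0.40). The 5 measured neutrophil markers had a median of -0.26 (level-adjusted -0.31) with 4 dim, the 3 B and plasma cell markers one of -0.11 (level-adjusted 0.14) with 2 dim, and the 7 mast cell markers one of -0.19 (level-adjusted -0.10) with 5 dim. Of 3 red blood cell markers the median was 0.42 (level-adjusted -0.11). The part of these cells in the values of Ptprc was not tested.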

How the data were processed

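RNA of the left adrenal medulla, pooled from 6 rats per group, was hybridized by the authors to 1 Affymetrix Rat Genome 230 2.0 array per group. The deposited log2 values, 1 per probe set and array, come from Affymetrix Expression Console per the submitters' processing notes. The paper names GCRMA and calls the deposited data quantile-normalized. Whether GCRMA or another method gave the deposited values is not stated in these sources. The log2 scale was inferred from the range of the values. Sorted, the values of both arrays differ by as much as 1.45, so their distributions are not identical.
Of 31099 rows 57 controls were left out. Probe sets were named from the platform annotation: 20826 had 1 gene, 436 several and 9780 none, and 20758 gene numbers matched RefSeq for GRCr8. Members and gene lists were chosen with earlier results of these data known. Named were all members and, per list, up to 2 highest and 2 lowest genes that were not dim. A gene high on only 1 array escapes being dim, so this rule can favour large differences. Further genes are marked in the text as named after their values were seen. Differences are 2RH30 minus 2RS30, counted at 2-fold. No model or test was fitted, since each group has 1 array, and their number limits the precision. Level adjustment used lowess (fraction 0.3, 3 iterations). Alternatives were other scalings, thresholds, filters and probe set choices. Python 3.11.15, pandas 2.3.3, numpy 2.4.6, statsmodels 0.14.6 and matplotlib 3.10.9 were used.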

Additional observations from a re-analysis of the deposited data

How the results depend on the processing

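Among 12 member probe sets, 5 were higher in 2RH30 by at least 2-fold as deposited, and 5 or 6 under every alternative except 3-fold, which left 2. The 2 that were lower became 1 after quantile normalization, lowess, at 3-fold or without probe sets that can match several transcripts, 4 at 1.5-fold, and 0 without dim probe sets, as both are dim, or with 1 probe set per gene, which keeps the brighter probe set of Ptprc and of Aif1. Thresholds and filters change these counts by construction. Of all probe sets 10.4% were higher and 12.1% lower as deposited, and 8.99% and 10.2% level-adjusted. At the other settings the share of all probe sets was not taken, so nothing is read from the counts. The 10 genes had a median of 0.998 as deposited and of 0.90 to 1.22 under the alternatives. The 1.22 is the value without dim probe sets. C1qa and Cd68 pass that filter only through 2RH30, and Csf1r and the brighter Ptprc probe set only through 2RS30. What the filter keeps thus depends on the differences, so this median and the counts without dim probe sets are no support. Among single genes, Aif1 was 0.36 as deposited but -1.29 when read from the probe set brightest in 2RS30. The mean over probe sets gave -0.47 for Aif1 and -1.42 for Ptprc. In the next count C1qa and Cd163 were set against the SD of 1.55, despite the limit given above. Of the alternative values of members and list medians, 94 stayed within the SD between probe sets of their main value. Only 1, a value of Aif1, did not. That SD is wide beside such changes, and genes with 1 probe set cannot change with the probe set choice. The count is therefore no measure of stability. Within that SD, level adjustment moved the median of lysosomal genes from 0.45 to 0.10 and that of CD14 partners from -0.44 to -0.03. It moved Lyz2 from 0.55 to 0.03 and Cd68 from 1.60 to 1.61. No paired analysis was possible because 1 pool stands for each group. Values already on a log scale need no pseudocount. No measure of signal over background comes with the values, which leaves the dim probe sets (4 of 12) without a detection limit.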

Other observations

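In 2RS30 the most common value, 5.55, was listed for 468 probe sets, and in 2RH30 the most common, 3.36, for 25. Of 185 genes in the related and cell type lists, 14 had a 2RS30 value shared by 100 or more probe sets, among them Trem2, Ctsz, Gpnmb, Fgr, Src, Ptprcap, RT1-Ba and Cd74. Without the probe sets on such values, 28922 were left, of which 10.4% were higher in 2RH30 by at least 2-fold and 11.7% lower. This check was chosen after the data were seen.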
